A study of Homo sapiens with 2 samples.

Results

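The granule, enzyme and receptor genes of eosinophils, basophils and mast cells were examined in 2 blood-generating heart-forming organoids (BG-HFOs). The 10 genes were EPX, PRG2, PRG3, CLC, RNASE2, RNASE3, HDC, CPA3, TPSAB1 and MS4A2, each found by its symbol among the 36601 genes of both count matrices. They were chosen by their known cell types with their detection in these libraries already seen, so their own UMI counts are given as a description and carry no test. Both organoids were grown to day 14 from the human embryonic stem cell line hES3 NKX2.5-eGFP, an established line whose fluorescent reporter marks cardiac NKX2.5. Stem cell aggregates in Matrigel received 2 phases of WNT modulation plus haemato-endothelial growth factors and cytokines, and each whole organoid was dissociated and sequenced as its own 3′ library. Organoid 32.7 was replicate 1 and organoid 33.10 was replicate 2 of this single condition, from 1 line, without an untreated or otherwise contrasting group. The comparisons are therefore between cells of the same organoids.

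Eosinophils are granulocytes that depend on interleukin 5. Their granules hold eosinophil peroxidase (EPX), major basic protein (PRG2) and its homologue PRG3, and the cytotoxic ribonucleases RNASE2 and RNASE3, while CLC, the Charcot-Leyden crystal protein galectin-10, fills their cytoplasm. Basophils and mast cells make histamine with histidine decarboxylase (HDC) and bind immunoglobulin E through a receptor whose beta chain is MS4A2. The proteases tryptase (TPSAB1) and carboxypeptidase A3 (CPA3) are stored chiefly, though not only, in mast cells. Eosinophils, basophils and mast cells arise from progenitors that also carry erythroid and megakaryocytic potential and use GATA1, GATA2 and CEBP factors, so early precursors can hold genes of more than 1 of these lineages.

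The question was whether the leukocytes of the organoids held these genes together, and in an eosinophil or in a basophil and mast cell arrangement. A cell was called PTPRC-positive when it held at least 1 unique molecular identifier (UMI, 1 captured transcript) of PTPRC, the pan-leukocyte antigen CD45. Such cells are called leukocytes below for short, although they held a median of only 3 and 2 PTPRC UMIs. TNNT2, a cardiomyocyte gene, was found in 51.0% and 41.9% of those without EPX, PRG2, PRG3 and CLC. The word leukocyte therefore states this rule and not a cell type. Of 16792 cells kept from organoid 32.7, 1900 (11.3%) were PTPRC-positive, and of 19893 cells kept from organoid 33.10, 1051 (5.28%) were. The matrices summed to 191152562 and 233818881 UMIs, and PTPRC-positive cells held a median of 13829 and 16857 UMIs against 7887.5 and 8284 over all kept cells. The 2 libraries shared 100 cell barcodes. No doublet caller was run. Among PTPRC-positive cells, 699 and 355 met the markers of both a blood and a non-blood cell type, and results are also given without them where that changed a call. Blood types were here erythroid, megakaryocyte, monocyte or macrophage and neutrophil precursor, and 1 UMI was enough for a marker. A mix of a non-blood cell with an eosinophil-gene cell or progenitor that lacks these blood markers was therefore not flagged. Leaving the flagged cells out does not test for such mixes.

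UMIs of the abundant members were also found in cells of other types. The cardiomyocyte gate without PTPRC comprised 2883 and 2985 cells with medians of 7740 and 10830 UMIs. It required 3 or more of 6 sarcomere genes at 3 or more UMIs each, and more markers than of any other gate. That UMI cut was chosen after the data were seen. Of its cells, 8.67% and 7.30% held a PRG2 UMI and 3.54% and 3.02% a CLC UMI. The corresponding shares were 1.73% and 1.44% for EPX, 1.18% and 0.871% for PRG3, 2.74% and 0.804% for RNASE2, 0.590% and 0.0670% for RNASE3, 0.624% and 2.38% for HDC, 0.208% and 0.101% for CPA3, and 0.0347% and 0.0335% for MS4A2. These shares are the comparison for each share below, although single cells of that gate held as many as 1492 and 2857 PRG2, 580 and 948 CLC and 68 and 61 EPX UMIs. For every 100 PRG2 UMIs, that gate held 29.9 and 23.7 CLC UMIs and 3.33 and 1.56 EPX UMIs. Free RNA, doublets and genuine transcripts in these cells cannot be told apart from such counts.

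The eosinophil granule genes were found in a minority of the leukocytes, at very high UMI counts in some of them. PRG2, on chromosome 11 (GRCh38, chr11:57386780-57390650, minus strand), was found in 430 of 1900 PTPRC-positive cells of organoid 32.7 (22.6%, exact 95% interval 20.8 to 24.6%) and in 225 of 1051 of organoid 33.10 (21.4%, 19.0 to 24.0%). Its level over the summed PTPRC-positive cells was 1712 and 1789 CPM (UMIs of the gene scaled to 1000000 UMIs of the summed cells), against 144 and 180 CPM in the remaining cells. The PRG2 level of the leukocytes was thus alike in both organoids and above that of the remaining cells in each. The amount per cell spanned a wide range, with 1 UMI in 172 and 65 of the PRG2-positive cells (40.0% and 28.9%), 2 to 4 in 62 and 38, and 5 or more in 196 and 122, of which 91 and 59 held 100 or more. Such counts were also found outside the PTPRC-positive cells, where 204 and 267 cells held 5 or more PRG2 UMIs and 34 and 66 held 100 or more. The highest PTPRC-positive cells held 3663 and 2213 PRG2 UMIs. Over all kept cells, with or without PTPRC, PRG2 made up as much as 28.5% and 13.8% of the UMIs of 1 cell.

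EPX, the peroxidase (chr17:58192726-58205174, plus strand), was found in 112 (5.89%) and 50 (4.76%) PTPRC-positive cells, with maxima of 151 and 121 UMIs. Its level was 71.7 and 42.1 CPM in PTPRC-positive cells and 5.95 and 3.50 CPM in the others. CLC, the galectin (chr19:39731255-39738029, minus strand), was found in 213 (11.2%) and 73 (6.95%) cells, at 618 and 775 CPM against 46.7 and 60.4 CPM, with maxima of 1274 and 1230 UMIs. In organoid 33.10, CLC-positive leukocytes were fewer but held more of it, with a median of 101 UMIs against 7 in organoid 32.7. PRG3, the PRG2 homologue (chr11:57376769-57381150, minus strand), was found in 128 (6.74%) and 65 (6.18%) cells, at 113 and 79.6 CPM against 8.41 and 7.66 CPM. All 4 genes were above the cardiomyocyte-gate share in both organoids, and they remained so when every cell was thinned to 3000 UMIs, which left out 150 and 67 shallower leukocytes. Thinned PTPRC-positive shares were 14.9% and 14.3% for PRG2, 8.63% and 5.49% for CLC, 4.34% and 3.66% for PRG3 and 4.29% and 2.74% for EPX. In the thinned cardiomyocyte gate they were 4.38% and 2.93% for PRG2, 1.85% and 1.26% for CLC, and 0.800% and 0.371% for EPX.

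PRG3 and CLC are shown by the 250 bases before their RefSeq start, because 75.0% and 63.1% of PRG3-positive leukocytes also held CLC, while 45.1% and 56.2% of CLC-positive ones held PRG3 (RefSeq, GRCh38.p14, read 5′ to 3′ on the strand of the gene). The windows are chr11:57381151-57381400 (minus) and chr19:39738030-39738279 (minus), and capitals mark GATA words in either direction, spelled AGATAA or, with G as the last base, AGATAG, and likewise TGATAA or, with G as the last base, TGATAG.
PRG3: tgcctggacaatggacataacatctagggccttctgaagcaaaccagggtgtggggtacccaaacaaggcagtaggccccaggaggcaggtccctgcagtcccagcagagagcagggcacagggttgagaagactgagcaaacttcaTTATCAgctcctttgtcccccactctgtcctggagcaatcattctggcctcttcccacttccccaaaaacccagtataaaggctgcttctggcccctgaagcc
CLC: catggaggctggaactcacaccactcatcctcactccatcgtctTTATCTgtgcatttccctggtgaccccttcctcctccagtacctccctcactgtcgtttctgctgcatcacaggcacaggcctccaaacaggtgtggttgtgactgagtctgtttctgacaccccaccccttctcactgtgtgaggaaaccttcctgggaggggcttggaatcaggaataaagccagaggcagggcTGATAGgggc
PRG3 held 1 such word, read on the opposite strand, 103 bases before the start. CLC held 2, at 206 and 10 bases before it. Such a word stood in 22.3% of 35116 RefSeq promoter windows of the same length and in 4 of the 7 members with a window (PRG3, CLC, CPA3 and MS4A2). The word GAGGAA, a core of PU.1 sites, stood in 23.6% of all windows and in 3 of the 7 (CLC, HDC and CPA3), and TATAAA in 10.7% of all windows and in 2 of the 7 (PRG3 and MS4A2, 29 bases before the start in each). These are matches of letters only, and none is a measured binding site. EPX, PRG2 and TPSAB1 had no window.

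RNASE2 was found in more leukocytes than any other member, and RNASE2 and RNASE3 were mostly in other cells than EPX. RNASE2, the eosinophil-derived neurotoxin (chr14:20955487-20956436, plus strand, 2 exons), was found in 1043 (54.9%) and 447 (42.5%) PTPRC-positive cells, at 200 and 125 CPM against 4.66 and 1.77 CPM in the others. RNASE3, the eosinophil cationic protein (chr14:20891385-20892348, plus strand, 2 exons), was found in 405 (21.3%) and 149 (14.2%), at 24.7 and 12.9 CPM against 0.774 and 0.139 CPM. Thinned shares of RNASE2 were 34.1% and 24.3% against 1.73% and 0.334% in the cardiomyocyte gate. Of all RNASE2 UMIs, 90.8% and 88.3% lay in PTPRC-positive cells, whereas for PRG2 the share was 73.1% and 51.7%. RNASE2 was therefore the member most contained in the PTPRC-positive cells of organoid 32.7, and RNASE3, with 90.9%, that of organoid 33.10.

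The windows before RNASE2 (chr14:20955237-20955486, plus) and RNASE3 (chr14:20891135-20891384, plus) are shown because the genes are near copies of each other. Capitals mark the longest run of identical bases, 86 bases long, from 217 to 132 bases before the RNASE2 start and from 166 to 81 bases before the RNASE3 start.
RNASE2: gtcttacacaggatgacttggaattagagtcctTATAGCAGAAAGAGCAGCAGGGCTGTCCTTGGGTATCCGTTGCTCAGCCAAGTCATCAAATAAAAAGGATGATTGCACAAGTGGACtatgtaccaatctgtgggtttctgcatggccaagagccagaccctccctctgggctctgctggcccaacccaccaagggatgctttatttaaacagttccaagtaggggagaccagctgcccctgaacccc
RNASE3: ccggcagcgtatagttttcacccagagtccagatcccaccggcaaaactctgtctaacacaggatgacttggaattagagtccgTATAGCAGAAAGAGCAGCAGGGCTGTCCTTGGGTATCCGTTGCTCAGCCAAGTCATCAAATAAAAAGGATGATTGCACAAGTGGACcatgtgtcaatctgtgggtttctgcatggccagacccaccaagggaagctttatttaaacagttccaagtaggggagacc
Aligned over 199 bases, these windows were 83.4% identical. The transcripts were 89.4% identical with an exact run of up to 67 bases, and RNASE2 was 92.7% identical to the neighbouring AL355922.1 (RNASE2CP in GENCODE release 44). Counts of these genes can therefore be split by the mapping of single reads. In the cells, 94.1% and 92.6% of RNASE3-positive leukocytes also held RNASE2, while 36.5% and 30.9% of RNASE2-positive ones held RNASE3.

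Of the basophil and mast cell genes, HDC alone was found in more than a few leukocytes, and it differed between the organoids. HDC, the histamine-forming enzyme (chr15:50241947-50265965, minus strand), was found in 96 of 1900 PTPRC-positive cells of organoid 32.7 (5.05%, 4.11 to 6.14%) and in 210 of 1051 of organoid 33.10 (20.0%, 17.6 to 22.5%). Its level was 9.15 and 47.3 CPM, against 3.19 and 8.74 CPM in the other cells. With 1 organoid on each side this difference between them has no replicate check. After thinning, the shares were 2.00% and 9.15%, and 0.295% and 0.964% in the cardiomyocyte gate. Most HDC UMIs lay outside the PTPRC-positive cells, which held 39.7% and 36.7% of them.

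CPA3, the carboxypeptidase (chr3:148865296-148897203, plus strand), was found in 35 (1.84%) and 23 (2.19%) PTPRC-positive cells, with at most 20 and 22 UMIs. MS4A2, the receptor beta chain (chr11:60088261-60098467, plus strand), was found in 8 (0.421%) and 5 (0.476%) cells, with at most 2 UMIs in any of them. TPSAB1, the tryptase (chr16:1240379-1242554, plus strand), was found in 0 of 1900 and 0 of 1051 cells, which allows a share of cells with a UMI of up to 0.158% and 0.285% (3 cells of each total, with exact 95% upper limits of 0.194% and 0.350%, counting error only). A single TPSAB1 UMI lay in a PTPRC-negative cell of organoid 33.10. TPSAB1 and its copy TPSB2 were 98.7% identical with an exact run of 682 bases, so reads that match both are not counted for either, and a count of 0 is not a measurement of tryptase as a whole. CPA3 is shown by the 250 bases before its start (chr3:148865046-148865295, plus), because it is the basophil and mast cell gene that met HDC in the same cells, with the GATA words in capitals as above.
CPA3: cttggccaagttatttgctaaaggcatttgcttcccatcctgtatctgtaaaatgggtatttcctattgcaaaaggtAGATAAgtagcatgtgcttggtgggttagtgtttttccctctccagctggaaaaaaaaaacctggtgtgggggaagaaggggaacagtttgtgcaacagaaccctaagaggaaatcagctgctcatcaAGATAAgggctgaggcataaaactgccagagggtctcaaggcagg
The word AGATAA stood at 173 and 45 bases before the start, and GAGGAA at 66 bases.

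The eosinophil genes were found in the same leukocytes. Of the 112 EPX-positive cells of organoid 32.7, 103 (92.0%) held PRG2, 85 (75.9%) CLC and 79 (70.5%) PRG3, and of the 50 of organoid 33.10, 43 (86.0%) held PRG2, 40 (80.0%) CLC and 37 (74.0%) PRG3. Among PTPRC-positive cells without EPX, CLC was found in 7.16% and 3.30% and PRG3 in 2.74% and 2.80%. The other way round, EPX was found in 24.0% and 19.1% of PRG2-positive cells. EPX cells were thus mostly PRG2 cells, and most PRG2 cells held no EPX UMI.

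The ribonucleases did not follow this arrangement as closely. RNASE2 was found in 87 of 112 (77.7%) and 30 of 50 EPX-positive cells, but EPX in only 8.34% and 6.71% of RNASE2-positive cells. RNASE3 was found in 36 (32.1%) of the EPX-positive cells of organoid 32.7 and in 1 (2.00%) of those of organoid 33.10. The 8 and 5 MS4A2-positive cells held RNASE2 in 8 and 1 cases, PRG2 in 5 and 3, HDC in 0 and 1, and EPX in none. For MS4A2 the cells are too few to say with which genes it occurs.

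HDC and CPA3 were found more often in EPX-positive leukocytes than in the others. In EPX-positive cells HDC was found in 22 of 112 (19.6%) and in 37 of 50 (74.0%), against 4.14% and 17.3% of PTPRC-positive cells without EPX. CPA3 was found in 19 (17.0%) and 10 (20.0%) of them. Of the 35 and 23 CPA3-positive cells, 33 (94.3%) and 21 (91.3%) held PRG2, 19 (54.3%) and 21 (91.3%) held HDC, and 19 (54.3%) and 10 (43.5%) held EPX. Most HDC-positive leukocytes held no EPX, since EPX was found in 22.9% and 17.6% of HDC-positive cells. With 2 UMIs required of each gene, HDC was in 19.7% and 71.4% of EPX-positive cells. Without the cells that met markers of a blood and a non-blood type, it was in 26.9% and 81.2%, and after thinning to 3000 UMIs in 7 of 35 and 3 of 8 cells. Here, unlike in the thinned shares above, a cell also had to keep a PTPRC UMI after thinning, as 1031 and 494 did.

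**Figure D1:**
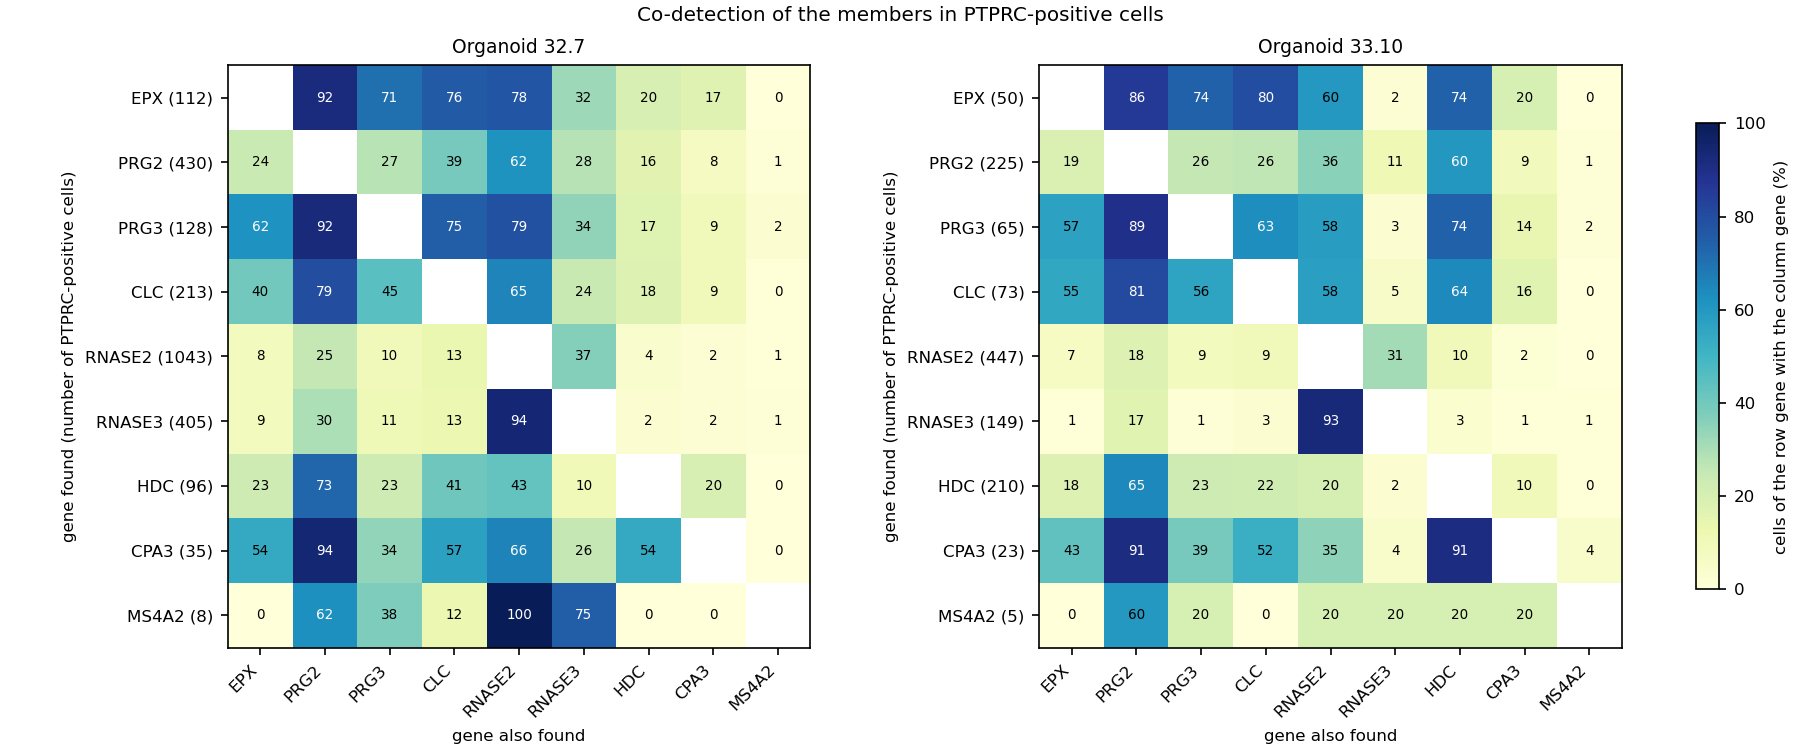
Share of the cells with the row gene that also hold the column gene, in percent and by colour, among PTPRC-positive cells of each organoid, with the number of cells beside each row gene and TPSAB1, found in no such cell, left out. PRG2 stands in 92.0% and 86.0% of EPX-positive cells, and HDC in 19.6% of them in organoid 32.7 but 74.0% in organoid 33.10.

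Cells were sorted by 2 lists of 4 genes, EPX, PRG2, PRG3 and CLC for an eosinophil pattern and HDC, CPA3, TPSAB1 and MS4A2 for a basophil or mast cell pattern, each pattern requiring 2 or more genes of its list and fewer than 2 of the other. RNASE2 and RNASE3 entered neither list, since monocytes and neutrophil precursors also use them. The eosinophil pattern was held by 182 of 1900 PTPRC-positive cells (9.58%, 8.29 to 10.99%) and 67 of 1051 (6.37%, 4.97 to 8.03%), a mean of 7.98% ± 2.27 (SD, n = 2 organoids). Of these cells, 92 (50.5%) and 35 (52.2%) held EPX, and 24 (13.2%) and 50 (74.6%) held HDC. The name of the pattern therefore states the rule and not a cell type. The basophil or mast cell pattern was held by 2 (0.105%) and 6 (0.571%) cells, a mean of 0.338% ± 0.329. Both patterns were held by 17 (0.895%) and 15 (1.43%) cells, a mean of 1.16% ± 0.377. The lists were not equally detectable, since TPSAB1 was found in no PTPRC-positive cell, MS4A2 in 8 and 5 and CPA3 in 35 and 23. The basophil or mast cell pattern thus rested on HDC with CPA3, and its share cannot be set directly against that of the eosinophil pattern. No member at all was found in 634 (33.4%) and 366 (34.8%), and the remaining cells held 1 gene of a list or only a ribonuclease. In each organoid, cells with 2 or more basophil and mast cell genes more often than not also held 2 or more eosinophil genes (17 of 19 in organoid 32.7 and 15 of 21 in organoid 33.10). Of the 15 and 34 cells with 10 or more summed UMIs of the basophil and mast cell list, 12 and 22 also held 10 or more of the eosinophil list and 2 and 9 held none of it. Cells with more UMIs have more chance to show 2 genes, and the median depth was 12034.5 and 20828 UMIs in the eosinophil pattern, 11431 and 32481 in cells with both, and 6683 and 11272.5 in cells with no member.

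**Figure D2:**
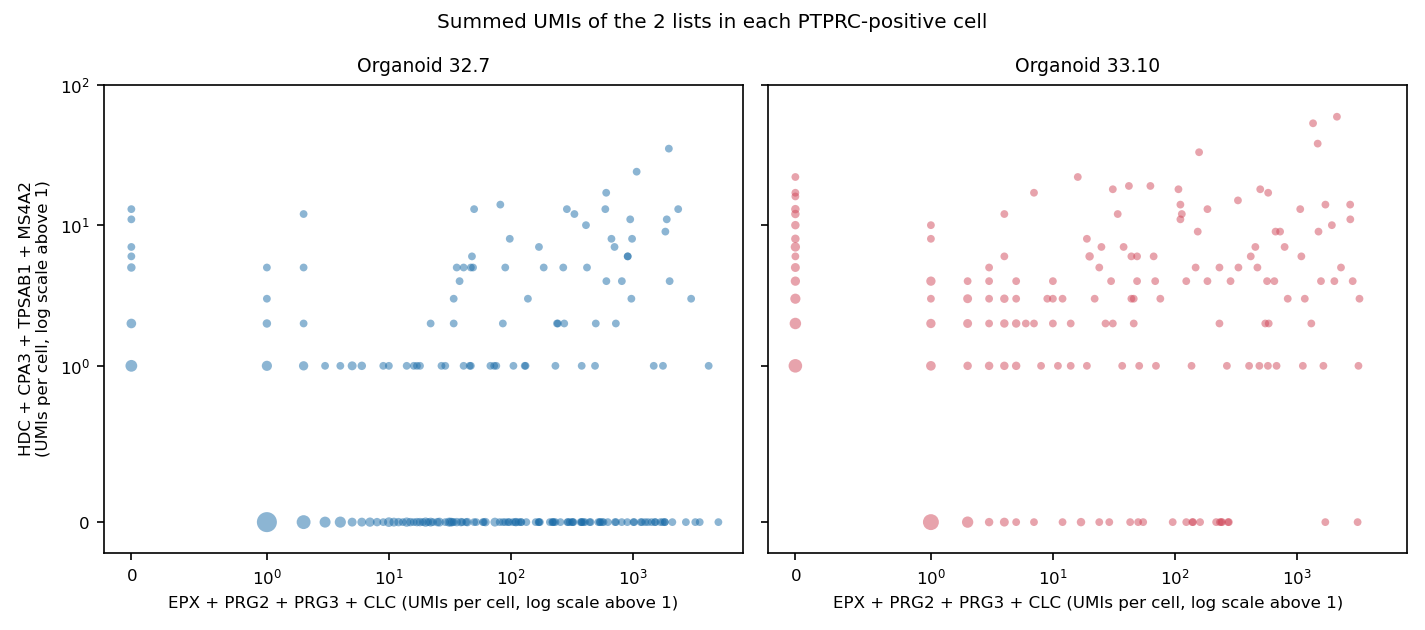
Each PTPRC-positive cell by its summed EPX, PRG2, PRG3 and CLC UMIs (horizontal axis) and its summed HDC, CPA3, TPSAB1 and MS4A2 UMIs (vertical axis), both on a scale that is linear up to 1 UMI and logarithmic above, with 1 panel for each organoid larger points for more cells and cells at 0 on both axes left out. Of the 15 and 34 cells with 10 or more UMIs on the vertical axis, 12 and 22 also held 10 or more on the horizontal one.

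Cells were also sorted by how many of the 4 eosinophil genes they held, and IL5RA and CEBPE were found more often with all 4 of them than with none in both organoids. Cells with 0, 1, 2, 3 and 4 of the genes numbered 1408, 293, 74, 58 and 67 in organoid 32.7 and 800, 169, 38, 8 and 36 in organoid 33.10. Their median summed UMIs of the 4 genes were 0, 1, 11, 74 and 714 in organoid 32.7 and 0, 1, 111, 250.5 and 1141 in organoid 33.10, an order that the sorting itself favours. Cells with 1 of the genes mostly held a single UMI, the amount that was also found in the cardiomyocyte gate. The few cells with 3 of the genes in organoid 33.10 make each of their shares imprecise.

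In organoid 32.7, IL5RA, a chain of the interleukin 5 receptor, was found in 1.28% of cells with none of the 4 genes. It was found in 53.7% of cells with all 4. In organoid 33.10 the shares were 1.38% and 88.9%. CEBPE, a factor of late granulocyte maturation, was found in 10.3% and 64.2% in organoid 32.7 and in 5.63% and 63.9% in organoid 33.10. CD14, a monocyte receptor, went the other way, from 36.3% to 7.46% and from 37.1% to 5.56%. GATA1, an erythroid, megakaryocytic and eosinophil factor, was found in 12.4% and 44.8% in organoid 32.7 and in 33.8% and 72.2% in organoid 33.10. HDC was found in 1.56% and 20.9% in organoid 32.7 and in 9.13% and 86.1% in organoid 33.10. The median depth of cells with 0 and 4 of the genes was 12733.5 and 14196 UMIs in organoid 32.7 but 15052.5 and 28560 UMIs in organoid 33.10, so there depth moved with the number of genes found, and its part was not tested. MPO, the myeloperoxidase of neutrophil granules, was found in 29.2% of cells with none, 62.1% with 3 and 52.2% with all 4 in organoid 32.7, and in 15.1% with none and 13.9% with all 4 in organoid 33.10. RNASE3 was found in 19.0% and 34.3% in organoid 32.7 and in 15.1% and 2.78% in organoid 33.10, so the granulocyte genes did not all follow IL5RA.

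**Figure D3:**
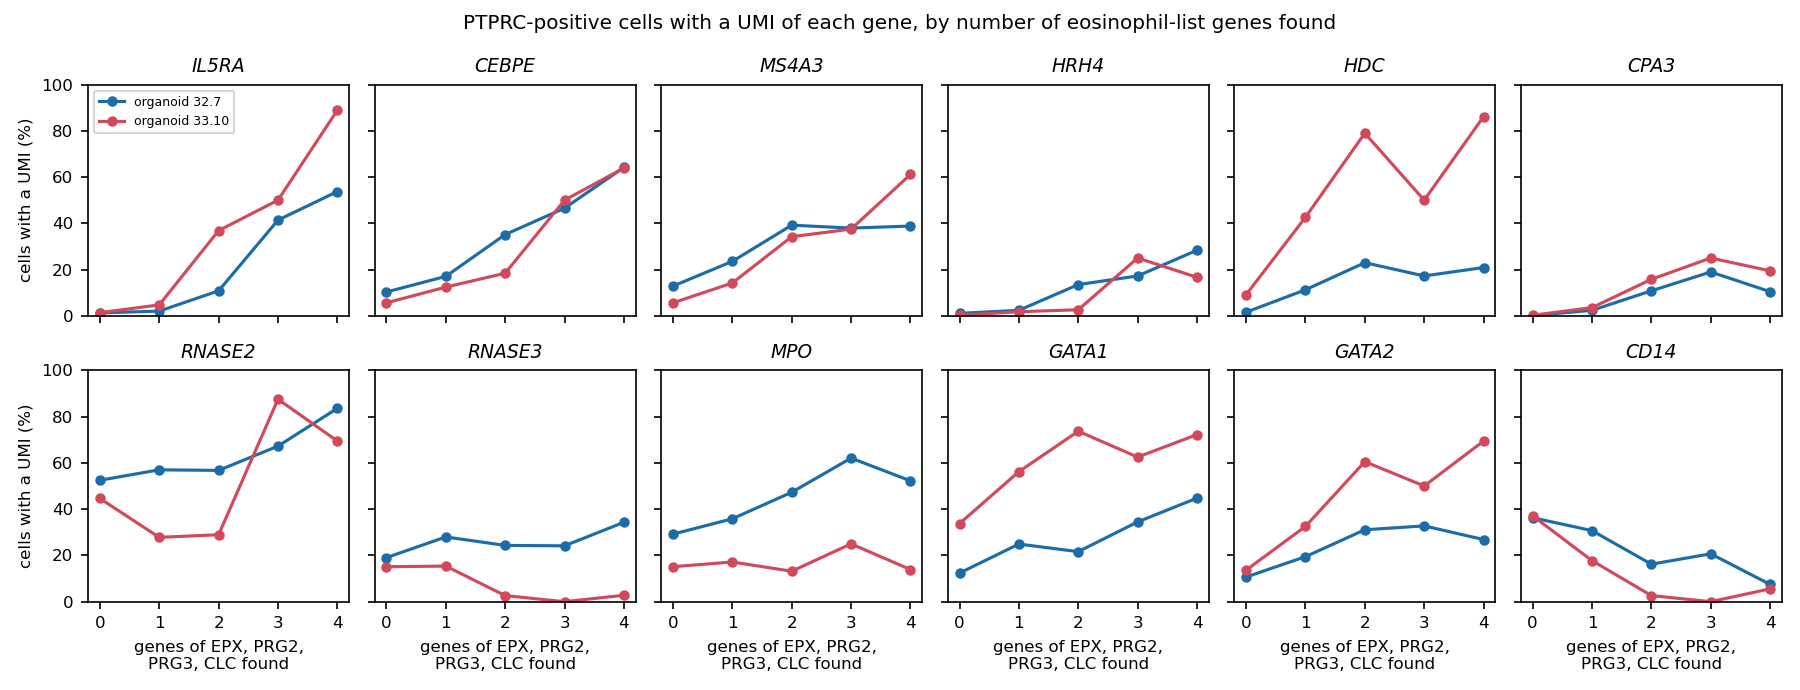
Percent of PTPRC-positive cells with a UMI of each gene (vertical axis) by the number of EPX, PRG2, PRG3 and CLC found in the cell (horizontal axis, 0 to 4), with 1 line for each organoid. IL5RA goes from 1.28% and 1.38% to 53.7% and 88.9%, CD14 goes from 36.3% and 37.1% to 7.46% and 5.56%, and HDC reaches 86.1% in organoid 33.10 but 20.9% in organoid 32.7.

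Levels were then set out by cell gate, where a cell entered a gate with 3 or more of its 6 marker genes at 3 or more UMIs each. This cut was chosen after the data were seen, in place of 1 UMI for a marker. The progenitor gate (MYB, SPN, RUNX1, CD34, KIT and TAL1) took only PTPRC-positive cells and held 45 and 51 cells. It had the highest level of 4 members in both organoids, with 1 or 3 UMIs for a marker. These levels came from few cells, since EPX was found in 24.4% and 19.6% of the gate, and only 14 (7.69%) and 15 (22.4%) eosinophil-pattern cells lay in it. Most of the others were unassigned, 66 (36.3%) and 29 (43.3%), or in the cardiomyocyte gate, 40 (22.0%) and 7 (10.4%), or the neutrophil precursor gate, 33 (18.1%) and 1 (1.49%). In the progenitor gate PRG2 stood at 10557 and 8443 CPM, CLC at 2694 and 3932 CPM, PRG3 at 909 and 439 CPM and EPX at 481 and 209 CPM. HDC was highest there too, at 27.8 and 222 CPM.

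The neutrophil precursor gate (MPO, ELANE, AZU1, PRTN3, CTSG and CSF3R) held 221 and 44 cells, and its PRG2 and EPX levels depended on the gate. In organoid 32.7 it was next in order for PRG2 at 2581 CPM and for EPX at 132 CPM, while in organoid 33.10 it held 122 CPM of PRG2 and 0.903 CPM of EPX. With 1 UMI for a marker the levels were 2978 and 1728 CPM of PRG2 and 169 and 94.2 CPM of EPX. RNASE2 and RNASE3 were highest there in both organoids, at 506 and 402 CPM and at 94.98 and 89.4 CPM, and 95.5% and 97.7% of its cells held RNASE2. The monocyte and macrophage gate, with 365 and 214 cells, held RNASE2 at 164 and 235 CPM in 73.2% and 75.7% of its cells, although EPX was found in 1.10% and 0.467% of them, no more than in the cardiomyocyte gate. RNASE2 was thus higher in the neutrophil precursor gate than in the monocyte and macrophage gate in both organoids. In the progenitor gate RNASE2 was at 217 and 73.5 CPM, between those gates in organoid 32.7, but at 173 and 99.8 CPM, below both in each organoid, with 1 UMI for a marker.

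HDC was also found outside the leukocytes. In the erythroid gate, set by erythroid marker genes such as ALAS2 and SLC4A1, with 584 and 1357 cells of which 14 and 22 were PTPRC-positive, 13.4% and 12.3% of cells held HDC at 11.5 and 24.4 CPM. That was above the 2.10 and 5.54 CPM of the cardiomyocyte gate and the 6.22 and 10.96 CPM of the megakaryocyte gate in each organoid. Thinned to 3000 UMIs, HDC was found in 2.25% and 3.29% of erythroid-gate cells, against 0.295% and 0.964% of cardiomyocyte-gate cells without PTPRC. This was not particular to HDC, since thinned PRG2 was found in 7.80% and 6.65% against 4.38% and 2.93%. EPX, PRG3, CLC and RNASE2 were found less often in the thinned erythroid gate than in that cardiomyocyte gate in both organoids. CPA3 in the erythroid gate was at 0.0803 and 0 CPM.

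**Figure D4:**
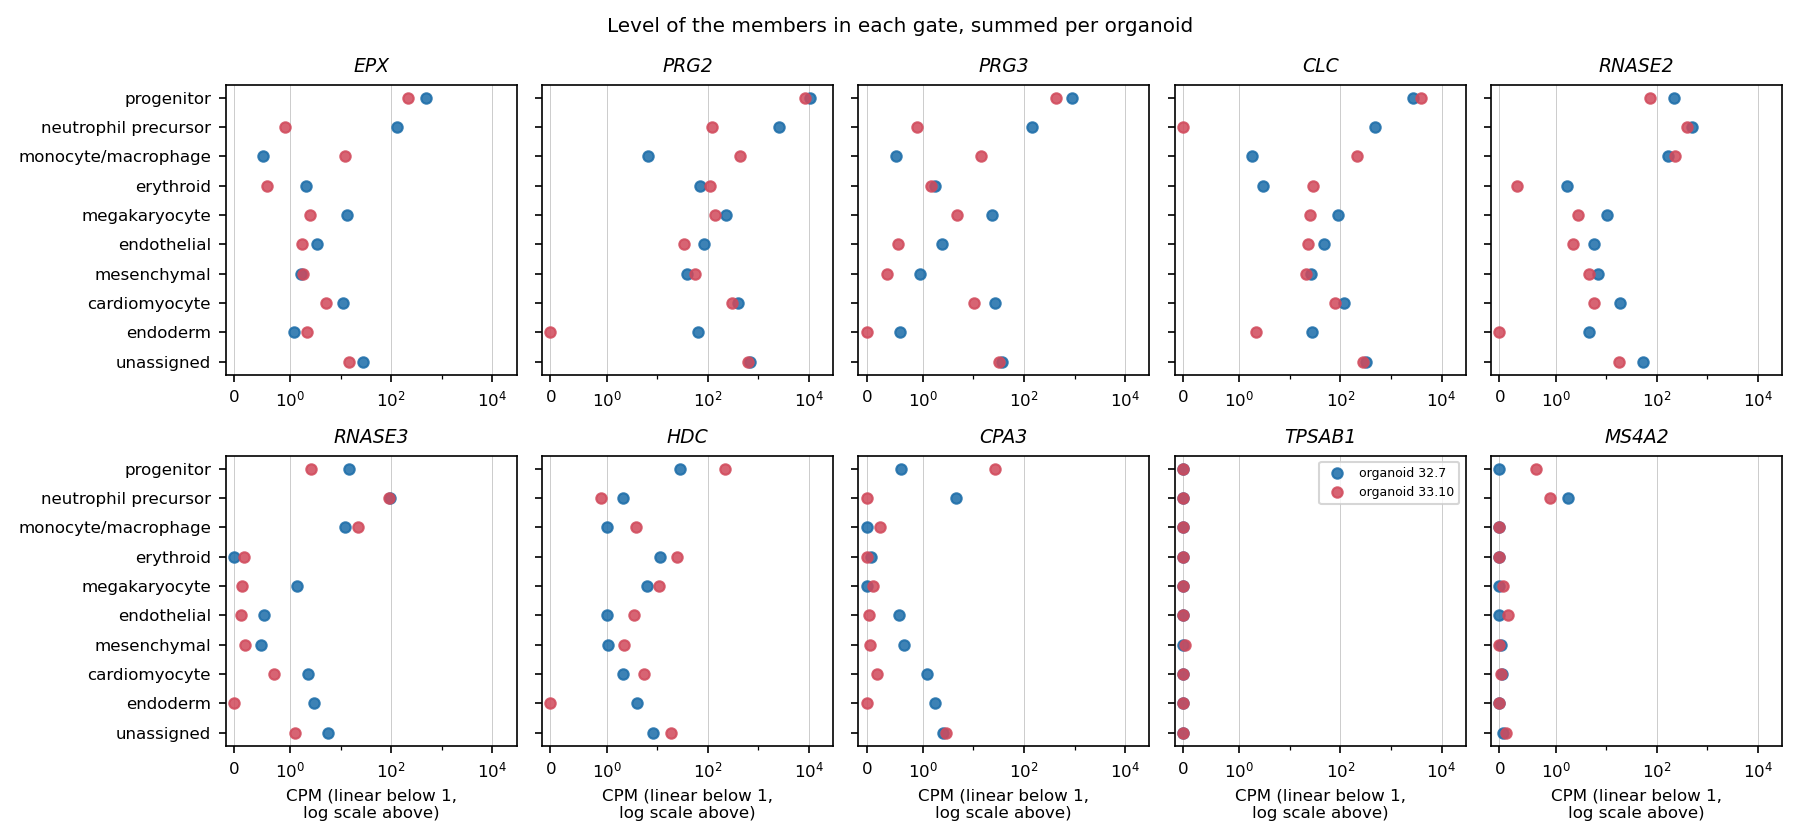
Level of each member in CPM (horizontal axis, linear below 1 and logarithmic above) in each cell gate (vertical axis), summed over the cells of the gate, with 1 point for each organoid. The progenitor gate is highest for PRG2, CLC, PRG3, EPX and HDC in both organoids, and the neutrophil precursor gate for RNASE2 and RNASE3.

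For each member, the non-member genes found most often in the same PTPRC-positive cells were listed by the Jaccard index. This index is the cells with both genes over the cells with either, averaged over the 2 organoids. Pairs of members were left out of these lists. In organoids 32.7 and 33.10 the index was 0.491 and 0.474 for EPX with PRG3, and 0.154 and 0.455 for HDC with PRG2. All points come from the same cells and libraries and carry no test. For EPX the nearest non-member genes were IL5RA (0.388), TRDC (0.351) and AVP (0.298), and IL5RA also came first among non-members for PRG3 (0.375) and CLC (0.332). EPX and IL5RA shared 52 cells in organoid 32.7 and 36 in organoid 33.10. TRDC, the constant segment of the T cell receptor delta chain, shared 39 and 30 of its 64 and 52 cells with EPX. For PRG2 the nearest genes were ACSM3 (0.332), MYB (0.316) and GIHCG (0.302), and for CPA3 they were RHEX (0.241), TRDC (0.205) and IL5RA (0.170).

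HDC and the ribonucleases had other non-member neighbours. For HDC these were GATA1 (0.266), PTH2R (0.264) and GATA2 (0.262), and GATA1 shared 59 and 169 cells with it. For RNASE2 they were NKG7 (0.673), PLAC8 (0.662) and CYBB (0.648), the last a subunit of the phagocyte oxidase. For RNASE3 they were AL355922.1 (0.372), followed by the neutrophil granule genes MPO (0.355) and AZU1 (0.341). AL355922.1 is a near copy of both ribonucleases, 89.8% identical to RNASE3 and 92.7% to RNASE2. MS4A2 was found in too few cells for such a list, and TPSAB1 in none.

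EPX-positive leukocytes with and without HDC differed in what else they held. In organoid 32.7, 22 cells held EPX and HDC and 90 held EPX alone, and in organoid 33.10 the numbers were 37 and 13. The cells were chosen on these genes and the sets are small, so the levels are a description. Of the EPX-positive leukocytes, 36 of 112 and 15 of 50 held 1 EPX UMI, and how these split between the sets was not tested. IL5RA was at 143 and 140 CPM in cells with both genes, at 59.9 and 23.2 CPM with EPX alone, and at 5.17 and 11.9 CPM in the 74 and 173 cells with HDC alone. CLC was at 20678 and 12129 CPM with both genes and at 5706 and 3657 CPM with EPX alone. GATA2, a factor of progenitors and of the basophil and mast cell lineage, was at 207 and 114 CPM with both, 26.1 and 14.5 CPM with EPX alone and 76.1 and 44.4 CPM with HDC alone. IL5RA and GATA2 were thus highest in the cells with both EPX and HDC in both organoids, and CLC was higher there than with EPX alone.

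MPO was at 33.8 and 4.28 CPM in cells with both genes, 1386 and 556 CPM with EPX alone and 211 and 36.4 CPM with HDC alone. CEBPE was at 127 and 72.0 CPM with both and at 165 and 72.4 CPM with EPX alone, against 8.80 and 3.66 CPM with HDC alone. GYPB, an erythroid membrane protein, was at 4.22 and 58.3 CPM with both genes and at 223 and 285 CPM with HDC alone. MPO was thus highest with EPX alone and GYPB with HDC alone in both organoids. FCER1A, the alpha chain of the immunoglobulin E receptor, was at 0 UMIs in EPX-positive cells of organoid 32.7 and at 2 UMIs in those of organoid 33.10. In all eosinophil-pattern cells KIT, the mast cell growth factor receptor, was at 5 and 0 UMIs and the mast cell proteases TPSB2 and CMA1 were at 0 UMIs in both organoids, where 3 UMIs are 0.853 and 1.57 CPM.

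Genes other than the members were tested between the eosinophil pattern and PTPRC-positive cells with no member. UMIs were summed per set and organoid, 4 summed libraries in all, and compared with edgeR's quasi-likelihood test and Benjamini-Hochberg adjustment. Of 14967 genes tested, 100 passed an adjusted p of 0.05 (0.668%), 88 of them higher (0.588%) and 12 lower (0.0802%) in the eosinophil pattern. Both sets come from each organoid, and with the organoid as a block 2239 genes passed (15%), 1088 higher (7.27%) and 1151 lower (7.69%), all 100 among them. The cells without a member also lack RNASE2 and RNASE3, so this set holds fewer monocytes and neutrophil precursors than the leukocytes as a whole. By the 3-UMI gate, 3 of 634 and 1 of 366 of them were neutrophil precursors. A rise of genes that neutrophil precursors also use was thus favoured in advance. Of eosinophil-pattern cells, 46.7% and 25.4% met markers of a blood and a non-blood type, and of cells with no member 38.2% and 33.3%.

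The named genes that rose most were a cytokine receptor, a granulocyte factor, a hormone gene and enzymes. IL5RA was at 50.03 and 84.7 CPM in the eosinophil pattern and 1.03 and 1.25 CPM in cells with no member, a log2 difference of 6.01 (SE 0.418, edgeR adjusted p = 0.0146). CEBPE was at 126 and 64.8 CPM against 1.55 and 0.716 CPM (log2 6.46, SE 0.478, adjusted p = 0.0172). ACSM3, a mitochondrial acyl-CoA synthetase, was at 536 and 383 CPM against 16.5 and 24.3 CPM (log2 4.64, adjusted p = 0.00978). Each eosinophil-pattern library was above each library with no member for these genes. PRSS57, a granule serine protease, rose by 5.30 (adjusted p = 0.0368), and AVP, the vasopressin gene, by 6.73 (adjusted p = 0.0261), from 11 and 0 UMIs to 260 and 163. PRSS57 and AVP lost the call without the eosinophil library of organoid 33.10 (adjusted p = 0.0649 and 0.0576).

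The genes that fell most were LNCAROD, a long non-coding RNA (log2 −2.32, adjusted p = 0.0318), SLC9A9, an endosomal sodium-proton exchanger (−1.92, 0.0342), CD14 (−1.81, 0.0382), KALRN, a guanine nucleotide exchange factor (−1.78, 0.0350), and LSAMP, a neuronal adhesion protein (−1.27, 0.0257). CD14 stood at 26.7 and 34.0 CPM in the eosinophil pattern and at 132 and 103 CPM in cells with no member. Calls of lower genes were less firm, since all 5 lost them without the eosinophil library of organoid 33.10 (adjusted p from 0.0734 to 0.122). CD14, KALRN and LSAMP also lost them without the cells that met 2 types (adjusted p = 0.137, 0.0606 and 0.0775), as did CD14 and LSAMP with 3 of the 4 genes required (0.116 and 0.0563), CD14 with 2 UMIs required (0.0577), CD14 and KALRN without the eosinophil library of organoid 32.7 (0.0520 and 0.0513), and LSAMP, KALRN and SLC9A9 without the no-member library of organoid 33.10 (0.0502 to 0.0521).

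Among 17 listed eosinophil receptors and enzymes, 14 passed the filter on low counts and were tested. The libraries of 1 set alone could carry a gene past that filter, while genes low in both sets were left out. List counts and medians cover only the genes tested. Of the 14, 4 rose and none fell, with a median log2 difference of 1.92 against −0.01 over all genes tested. With the organoid as a block 10 rose. Beside IL5RA these were CSF2RB, the beta chain shared by the interleukin 3, interleukin 5 and GM-CSF receptors (log2 2.36, adjusted p = 0.0382), LTC4S, the leukotriene C4 synthase (2.93, 0.0146), and HRH4, the histamine H4 receptor (5.45, 0.0499). ALOX15, a lipoxygenase of human eosinophils, was at 52.3 and 14.1 CPM against 2.97 and 1.07 CPM and did not pass (log2 4.14, adjusted p = 0.0910), but passed with the block (adjusted p = 0.000435). CSF2RB lost its call without cells of 2 types (adjusted p = 0.0559) and without either library of organoid 33.10 (0.0538 and 0.0517), as did HRH4 without cells of 2 types (0.0725), with DESeq2 size factors (0.0526), and without the eosinophil library of organoid 32.7 (0.0714) or the no-member library of organoid 33.10 (0.0724).

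Of 21 listed basophil and mast cell genes other than the members, 13 passed the filter and were tested. Of the 13, 2 rose and none fell, with a median log2 difference of 0.05. These were LTC4S, which the eosinophil list also holds, and MS4A3, a membrane protein of myeloid progenitors and basophils (61.7 and 37.6 CPM against 2.07 and 0.537 CPM, log2 5.29, adjusted p = 0.0257). With the block 3 rose and 1 fell, FCER1G (log2 −0.61, adjusted p = 0.0135), the gamma chain that many receptors share. SLC18A2, the vesicular amine transporter that loads histamine into granules, was the one that the block added to the higher genes, at 15.6 and 30.8 CPM against 5.29 and 11.1 CPM (adjusted p = 0.163, and 0.00719 with the block).

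Of granulocyte transcription factors, 4 of 23 rose and none fell, with a median of 0.70. Beside CEBPE these were MYB, a progenitor factor (178 and 176 CPM against 19.4 and 17.9 CPM, log2 3.39, adjusted p = 0.00373), IKZF2 (3.41, 0.00978) and IKZF1 (1.56, 0.0299), both zinc finger factors of blood cells. IKZF1 lost its call without either library of organoid 33.10 (adjusted p = 0.0576 and 0.0624). With the block 11 rose and 4 fell. GATA2 was at 33.3 and 71.6 CPM against 18.3 and 12.2 CPM and passed only with the block (adjusted p = 0.116, and 0.0204 with it). GATA1 did not pass (log2 −0.47, SE 0.493, adjusted p = 0.608), at 34.4 and 70.0 CPM against 50.5 and 107 CPM.

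Neutrophil granule proteins, with 9 of 13 listed genes tested, had the highest median of the lists, 3.50 on the log2 scale. Yet 0 of the 9 passed without the block and 8 rose with it. A rise of these genes was favoured in advance, because the cells with no member held almost no neutrophil precursors. MPO was at 1003 and 119 CPM against 70.7 and 38.1 CPM (log2 3.50, SE 0.964, adjusted p = 0.138, and 0.00858 with the block), and AZU1, azurocidin, at 192 and 41.3 CPM against 6.20 and 1.79 CPM (adjusted p = 0.0912, and 2.76e-05 with the block). For both genes the eosinophil-pattern library of organoid 32.7 was far above that of organoid 33.10. ELANE, neutrophil elastase, was not among those tested.

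Monocyte and macrophage genes had a median of −1.81, with CD14 the only 1 of 13 past the threshold, and with the block 9 fell and 3 rose. The genes that rose with the block were FCN1, S100A8 and S100A9, which blood monocytes and neutrophil precursors share. Megakaryocyte genes also had a median of −1.81, with 0 of 9 passing and 7 lower with the block. Among these was PF4, at 573 and 343 CPM against 1693 and 2618 CPM (edgeR adjusted p = 0.0704, and 0.00569 with the block). By the 3-UMI gate, megakaryocytes were 6.04% and 5.97% of the eosinophil pattern and 9.94% and 35.8% of cells with no member. For monocytes and macrophages the shares were 3.30% and 1.49% against 10.1% and 11.5%. The part of this make-up in the lower levels was not tested. Of 13 listed erythroid genes 12 were tested, 0 passed (median −0.16) and 2 globins, HBG1 and HBG2, were lower with the block.

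Markers of the other tissues were present in both sets. Of 6 cardiomyocyte genes 0 passed (median −0.47, 1 lower with the block), and their summed level was 1717 and 876 CPM in the eosinophil pattern and 2178 and 1696 CPM in cells with no member. Of 6 endothelial genes 0 passed (median −0.86, 5 lower with the block), with sums of 228 and 101 CPM against 406 and 281 CPM. Of 6 mesenchymal genes 0 passed (median −0.81, 5 lower with the block), with sums of 472 and 295 CPM against 877 and 621 CPM. In each organoid all 3 sums were thus lower in the eosinophil pattern than in the cells with no member, and the part of that RNA in the called genes was not tested.

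Of 10 cell cycle genes 0 passed and 7 were higher with the block (median 0.66), for example TOP2A, topoisomerase II alpha, at 170 and 224 CPM against 147 and 131 CPM (adjusted p = 0.143, and 0.0351 with the block). Of 12 genes of secretion and of the unfolded protein response, 1 rose, CALR, the chaperone calreticulin (1437 and 1189 CPM against 734 and 629 CPM, log2 1.09, adjusted p = 0.0499), and 6 rose with the block (median 0.38). CALR lost its call in the DESeq2-scaled fit (adjusted p = 0.0556), without cells of 2 types (0.0560) and without each of the 4 libraries (0.0518 to 0.129).

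**Figure D5:**
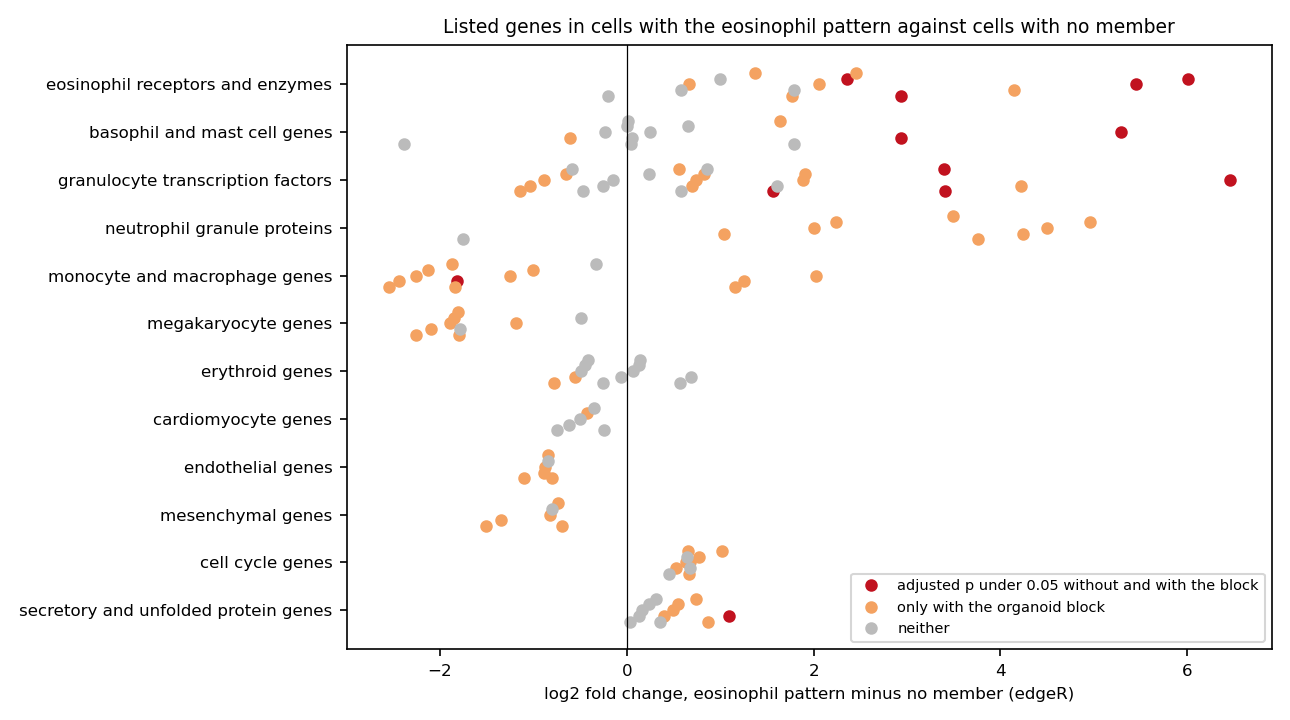
Log2 difference between the eosinophil pattern and cells with no member (horizontal axis, edgeR) for each listed gene that was tested, with 1 row for each list. Colour marks genes that passed an adjusted p of 0.05 without the block, with the block alone, or in neither fit. Neutrophil granule proteins and eosinophil receptors lie mostly to the right of 0, and megakaryocyte and most monocyte genes to the left.

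The basophil or mast cell pattern, with 2 and 6 cells, and the cells with both patterns, with 17 and 15, were under the 20 cells per organoid set for a test, and no gene was compared in them.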

How the data were processed

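The 2 day-14 BG-HFOs were profiled by 3′ single-cell RNA-seq (10x Genomics). The deposited values were raw UMI counts per gene and barcode, which the authors made with Cell Ranger 7.0.0 (matrix headers) against GRCh38, before their later merging, ambient RNA removal with SoupX and clustering. These counts were used as deposited, so ambient transcripts remain in them. Following the study's filter, cells with 50 to 11000 genes and under 30% mitochondrial UMIs were kept. Depth was 191152562 and 233818881 UMIs over 16866 and 19948 barcodes, and exact binomial intervals and floors of 3 cells cover counting error only.

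PTPRC-positive cells held 1 or more PTPRC UMIs. The members, gene lists and tests were chosen with earlier results of these data known. Gates needed 3 of 6 markers and more than any other gate. The name of 1 gate marker is not reported here. The 3-UMI gate and the use of 2 UMIs for detection in the gene test were added after the data were examined. UMIs of the eosinophil pattern and of cells with no member were summed per organoid and tested across all genes with edgeR 4.0.16 (R 4.3.3, TMM, filterByExpr, quasi-likelihood test, Benjamini-Hochberg adjustment at 0.05). Both sets come from the same organoid, so the fit with organoid as a block is given beside the fit without it. As the 2 organoids share a line, p-values measure only the spread between these samples. On simulated counts, the test without the block recovered 30 of 100 genes changed by 1 on the log2 scale and 92 of 100 changed by 2. The simulation gave all genes the same spread and no difference between organoids, and changed only genes above a count cut. Recovery of genes with fewer counts or with more spread between the organoids was not simulated. A list in which 0 genes passed is therefore not shown to be unchanged.

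Named genes were the members, the called and defining genes of each list, and the 5 genes with the largest change in each direction among called genes. Those 5 had a symbol, the same direction in both organoids and at least 50 CPM in both libraries of the higher set. The 3 non-member genes nearest to each member by the Jaccard index were named too. MPO, AZU1, ALOX15, GATA2, SLC18A2 and other uncalled genes with values are defining genes of their list or were chosen after their values were seen. Alternatives covered cell filters, PTPRC and pattern cuts, thinning to 3000 UMIs, cells of 2 types, scaling, count filter, DESeq2 1.42.0 and each library left out. Gene positions are from GENCODE release 44 on GRCh38, and promoter windows from RefSeq on GRCh38.p14. Other values were computed in Python 3.11.15.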

Additional observations from a re-analysis of the deposited data

Results flagged for a closer look

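EPX at 5 or more UMIs was also found outside the cells that the comparisons used. In organoid 32.7, 26 of 14892 cells without a PTPRC UMI held 5 or more EPX UMIs (0.175%, where a count of 0 would allow 0.0201%), and in organoid 33.10, 25 of 18842 did (0.133%, where it would allow 0.0159%). Among PTPRC-positive cells the numbers were 64 and 26. The cells without PTPRC held a median of 16612 and 13951 UMIs and those with it 18882 and 33066.5. Summed over the cells without PTPRC, PRG2 was at 25993 and 37094 CPM, CLC at 8745 and 18534 CPM, IL5RA at 53.5 and 130 CPM and CEBPE at 160 and 166 CPM, with CD14 at 0 UMIs in both organoids. TNNT2, a cardiomyocyte gene, was at 802 and 252 CPM in them against 203 and 320.5 CPM in the PTPRC-positive cells, and whether these cells lack PTPRC or its UMI was missed was not tested.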

How the results depend on the processing

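The share of PTPRC-positive cells with the eosinophil pattern (7.98%) moved to 5.38% with 3 of the 4 genes, 15.8% with 1 of the 4 and 26.4% with RNASE2 and RNASE3 in the list. After thinning to 3000 UMIs it was 4.86%, among the 1031 and 494 cells that kept a PTPRC UMI. The basophil or mast cell pattern (0.338%) moved to 4.37% with 1 of the 4 genes, and both patterns (1.16%) to 0% with 3 and 9.06% with 1. Each organoid alone gave 6.37 to 9.58%, 0.105 to 0.571% and 0.895 to 1.43%. Over the co-detection shares of EPX, HDC and MS4A2 (24 results), 49 values with 2 UMIs, thinning or cells of 2 types left out stayed within 1 SD of the 2 organoids and 15 moved further (1 organoid left out cannot exceed that SD). With 1 UMI for a gate marker, PRG2 in the neutrophil precursor gate of organoid 33.10 was at 1728 and not 122 CPM, EPX at 94.2 and not 0.903 CPM. The genes called in edgeR (100) numbered 90 with DESeq2 size factors, 96 without cells of 2 types, 2527 without the count filter, 637 by DESeq2's Wald test, 2239 with organoid as a replicate block, 601 with 3 of the 4 genes, 452 with 2 UMIs for detection, and 57 to 275 when 1 summed library was left out (275 and 57 without the eosinophil-pattern libraries of organoids 32.7 and 33.10, and 232 and 59 without their libraries with no member). In those fits the lone library is assumed to vary like the others. The split between higher and lower genes was 88 and 12, but 1088 and 1151 with the block, 967 and 1560 without the filter, and 356 and 281 by DESeq2. Without cells of 2 types it was 63 and 33, and only 61 of those 96 genes were among the 100 of the main fit. All of these settings sorted the cells by the members and kept cells with no member as the reference. How far that sorting shaped the calls, those kept in every setting included, was therefore not tested. Of 18 named called genes, 7 (ACSM3, CEBPE, IKZF2, IL5RA, LTC4S, MS4A3 and MYB) kept direction and call in every setting. GATA1, not called in either direction, went from −1.07 to 0.21 on the log2 scale when 1 library was left out, and was above 0 at 0.01 and 0.21 without the eosinophil-pattern library of organoid 32.7 and without the no-member library of organoid 33.10, and TNNT2 to 0.0083 with 2 UMIs for detection, and the cause was not tested. The block moved other counts as given beside them. Planned comparisons with the basophil or mast cell pattern were not run, with 2 and 6 cells. MS4A2 and TPSAB1 had at most 2 UMIs in any cell, and the part of depth in this was not tested.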

Other observations

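Constant segment genes of the delta and gamma T cell receptor chains were found in the eosinophil-pattern cells at more UMIs than the other genes of the receptor complex, an observation made after the values were seen. TRDC was at 127 and 121 UMIs (36.1 and 63.2 CPM) in the eosinophil pattern and at 0 UMIs in both libraries of cells with no member. TRGC1, a constant segment of the gamma chain, was at 179 and 59 UMIs (50.9 and 30.8 CPM) against 42 and 11 UMIs, and TRGC2 at 109 and 33 UMIs against 10 and 5. In the same eosinophil-pattern cells CD3D was at 4 and 4 UMIs, CD3E at 0 and 0, CD3G at 1 and 1, CD247 at 3 and 1 and TRAC at 0 and 0. TRDC was highest in cells with both EPX and HDC, at 131 and 124 CPM, against 40.8 and 17.4 CPM with EPX alone and 17.1 and 11.4 CPM with HDC alone.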
